A study of Mus musculus with 12 samples.

Results

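Glycolysis splits glucose into pyruvate in the cytosol and yields ATP and NADH, and lactate dehydrogenase returns the NADH to NAD+ by turning pyruvate into lactate, which leaves the cell through monocarboxylate transporters. The pentose phosphate pathway (PPP) branches off at glucose-6-phosphate. Its oxidative arm makes NADPH and its non-oxidative arm makes the ribose of nucleotides. T cells are known to raise glucose uptake, glycolysis and lactate release when they are activated through the T cell receptor, and Myc, mTOR and HIF-1 are known regulators of the genes involved. The genes described here are 31 enzymes, transporters and kinases of glycolysis and the PPP, matched by symbol to a list of names. The rule uses no measured value, but the list was drawn up with earlier results of these data known. All 31 were found among the 49585 genes of the count files. They comprise 2 glucose transporters, 10 genes of upper glycolysis (glucose to triose phosphates), 7 of lower glycolysis (glyceraldehyde-3-phosphate to pyruvate), 5 of lactate and pyruvate handling, 3 of the oxidative PPP and 4 of the non-oxidative PPP.

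Naive CD4 T cells from the lymph nodes of female mice were cultured for 20 h on plates coated with antibodies to CD3 (5 ug/ml) and to CD28 (1 ug/ml), and received 0.1 mg/ml cycloheximide for 1 min before lysis. Both groups carried *Rnmt* fl/fl alleles. *Rnmt* cKO cells also carried CD4-Cre, which acts in T cells from the double positive stage of the thymus, and control cells did not. RNMT methylates the guanosine cap of mRNA. From 3 control and 3 *Rnmt* cKO samples, cytoplasmic RNA (total RNA) and ribosome protected fragments (RPF, the stretches of mRNA covered by ribosomes) were sequenced, which gave 12 libraries. The labels do not give the age of the mice or say whether the samples of a group came from separate mice, and p-values then measure only the spread between these samples. Between 15079703 and 22629563 reads were counted on genes in the total RNA libraries and between 4123271 (*Rnmt* cKO 3) and 10661356 in the RPF libraries.

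Levels are given as CPM, counts relative to the library total, scaled by the TMM method of edgeR within each kind of library. Differences are given on the log2 scale, *Rnmt* cKO against control, with their standard error (SE), and a gene was called decreased or increased at a Benjamini-Hochberg adjusted p below 0.05 in the quasi-likelihood test of edgeR over all genes tested. They are relative to the RNA sequenced, so a difference in mRNA per cell is not included. The study reported less mRNA per cell in activated *Rnmt* cKO cells. It stated that falls of single genes are therefore understated and rises overstated. In bulk samples, fewer cells that express a gene and less RNA per cell cannot be told apart. *Rnmt* itself had 95.3, 93.9 and 94.1 CPM of total RNA in controls and 29.3, 32.3 and 30.4 CPM in *Rnmt* cKO. Its RPF fell further, from 104, 87.7 and 98.7 CPM to 10.5, 10.3 and 9.57 CPM. No library went against its label.

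*Cd4* was present in every library, at 315 to 349 CPM of total RNA in controls and 270 to 315 CPM in *Rnmt* cKO. The 8 CD4 T cell markers listed were all detected, and 5 of them were decreased and none increased in total RNA. All 6 activation markers (*Il2ra*, *Cd69*, *Tnfrsf4*, *Nr4a1*, *Il2* and *Mki67*) rose in total RNA and 5 of them in RPF, where *Mki67* was not called. The RPF difference of *Mki67* (0.61, adjusted p = 0.05) passed with DESeq2 (0.0023), the edgeR exact test (0.028) and the replicate block (0.013), among other alternatives. In total RNA *Mki67* was not called with *Rnmt* cKO 3 alone (adjusted p = 0.071). B cell markers set 2 libraries apart. The summed total RNA of *Ms4a1*, *Cd79a*, *Cd79b*, *Pax5* and *Blnk* was 7.36, 4.70 and 26.0 CPM in controls and 68.4, 89.5 and 15.7 CPM in *Rnmt* cKO. *Rnmt* cKO 1 and 2 thus stood above every control, while *Rnmt* cKO 3 lay below control 3. In RPF the same sums were 9.56, 8.12 and 30.8 CPM against 103, 121.5 and 17.9 CPM. Of these genes, 3 of the 4 tested in total RNA were increased and none was at 0 in any library. The groups overlapped for *Ms4a1* and *Blnk*. Both calls were lost without control 1 or 2 or *Rnmt* cKO 1 or 2 and with the replicate block (adjusted p from 0.07 to 0.14). The *Cd79b* call was lost with the replicate block (0.05), and that of *Ms4a1* also with DESeq2 (0.06). *Ms4a1* was the most abundant in the total RNA of the libraries with high sums, at 33.7 and 41.0 CPM. The 6 NK cell markers summed to 2.07, 4.07 and 3.44 CPM against 8.13, 12.5 and 7.42 CPM in total RNA. Of the 2 tested, *Klrk1*, an activating receptor, was increased. Its call was lost without control 1 or 3 or *Rnmt* cKO 1 or 3 (adjusted p from 0.064 to 0.11) and with the replicate block (0.087). *Prf1*, which activated T cells also express, was the most abundant in 4 of 6 libraries. It was not called, but passed without a filter (adjusted p = 0.012) and without *Rnmt* cKO 2 (0.038). The receptors *Ncr1*, *Klrb1c* and *Klra8* were each below 1 CPM. In RPF the NK sums were 2.81, 1.2 and 4.77 CPM against 13.3, 26.8 and 13.0 CPM. Of the 3 markers tested, *Prf1* was increased, a call lost without control 1 (adjusted p = 0.053). *Gzma* had 0, 0 and 0.122 CPM in controls and 5.25, 17.9 and 1.47 CPM in *Rnmt* cKO. It passed the filter on low counts only through the *Rnmt* cKO libraries, so nothing is drawn from its call as increased. The part of other cell types in the results was not tested. No erythroid or platelet marker and 1 of 8 myeloid markers (*Cd68*) passed the filter on low counts, and neither CD8 gene was called, though in total RNA both were decreased with *Rnmt* cKO 3 alone and without a filter. The counts of members called are therefore also given with *Rnmt* cKO 3 alone set against the controls, with each printed call of a member or other pathway gene that this comparison ended. It is a fit chosen after the data were seen in which the lone library is assumed to vary like the controls.

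In total RNA, 18 of the 31 genes were decreased in *Rnmt* cKO cells, 4 were increased and 9 were not called. Across all 11519 genes tested, 28.0% were decreased and 26.3% increased. All 18 decreased genes had every *Rnmt* cKO library below every control, which held for 32.3% of all genes tested, and 7 genes had every *Rnmt* cKO library above every control, against 30.0%. The median log2 fold change of the 31 genes was -0.42, beside 0.00 for all genes (-0.004). In RPF, *Pgam1* was too low to be tested, and 14 of 30 genes were decreased and 5 increased, against 15.7% and 14.1% of the 11428 genes tested. In 6 genes every *Rnmt* cKO library was above every control in RPF, against 22.2% of all genes, and in 15 below, against 24.3%. The median was -0.29, beside 0.01 for all genes. The change was thus lopsided towards lower levels among these genes in both kinds of library, whereas over all genes rises and falls were about equally frequent.

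By pathway, of 24 glycolytic genes, 16 fell and 4 rose in total RNA, with a median of -0.51, and 13 of the 23 tested were decreased and 3 increased in RPF. Of 7 PPP genes, 2 were decreased and none increased in total RNA, with a median of 0.10, and 1 was decreased and 2 were increased in RPF. The 2 of 7 decreased in total RNA are about the share over all genes (28.0%). For RPF, the shares over all genes were 15.7% for falls and 14.1% for rises. The 1 of 7 PPP genes that fell and the 3 of 23 glycolytic genes that rose lay near these shares. The 13 of 23 glycolytic genes that fell lay above them, as did the 2 of 7 PPP genes that rose, though these are few genes. Whether the pathways differ from each other was not tested. With *Rnmt* cKO 3 alone against the controls, total RNA had 16 decreased and 5 increased members of the 31, beside 2309 and 2193 of all genes tested. In RPF, where that library is the shallowest, 9 were decreased and 1 increased, while the numbers over all genes fell to 520 and 477. The total RNA calls of *Slc2a1* (-0.22, adjusted p = 0.15), *Pfkfb3* (0.20, adjusted p = 0.15), *Pgam1* (-0.66, adjusted p = 0.069) and *Tkt* (-0.19, adjusted p = 0.17) were lost in that fit, and *Pgls* (0.32, adjusted p = 0.021), *Rpia* (0.28, adjusted p = 0.032) and *Pgd* passed. In RPF the calls of *Hk1*, *Hk2*, *Pfkfb3* (0.31, adjusted p = 0.21), *Pgk1* (-1.33, adjusted p = 0.17), *Ldhb* (-0.28, adjusted p = 0.34), *Slc16a1* (0.31, adjusted p = 0.14), *Pdk1* (-0.26, adjusted p = 0.18), *Rpia* (0.40, adjusted p = 0.088) and *Taldo1* (-0.24, adjusted p = 0.22) were lost. *Ldha*, *Aldoa*, *Tpi1*, *Pkm*, *Pfkl*, *Gpi1*, *Pfkm*, *Eno1* and *Slc16a3* kept their calls as decreased in both kinds of library.

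Together the 31 genes held 0.712, 0.705 and 0.667% of the protein-coding counts in control total RNA and 0.496, 0.480 and 0.503% in *Rnmt* cKO. The means were 0.695% ± 0.0246 (SD, n = 3) and 0.493% ± 0.0119 (SD, n = 3). In RPF the shares were 0.914, 0.895 and 0.907% against 0.726, 0.736 and 0.70%. The groups did not overlap in either kind of library. *Rnmt* cKO 3, the library of its group with the lowest B cell sum, had the highest share of the group in total RNA and the lowest in RPF. Upper glycolysis made up the largest part, with 0.244, 0.236 and 0.230% of total RNA counts in controls and 0.152, 0.151 and 0.157% in *Rnmt* cKO. The oxidative PPP genes held 0.0210, 0.0207 and 0.0207% against 0.0231, 0.0227 and 0.0208%.

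**Figure D1:**
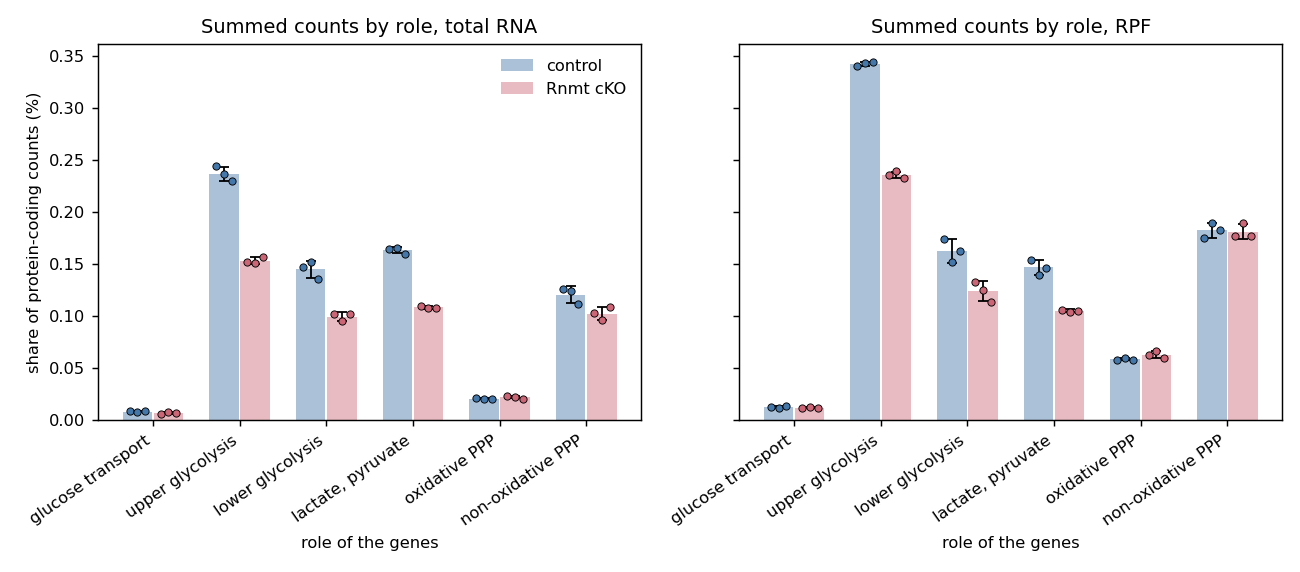
Share of protein-coding counts (%, vertical axis) held by the genes of each role in total RNA (left) and RPF (right), for control (blue) and *Rnmt* cKO (red), where points are libraries, bars are means of 3 libraries and error bars are SD. The 3 groups of upper glycolysis, lower glycolysis and lactate and pyruvate handling were lower in every *Rnmt* cKO library than in every control, in total RNA and in RPF.

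**Figure D2:**
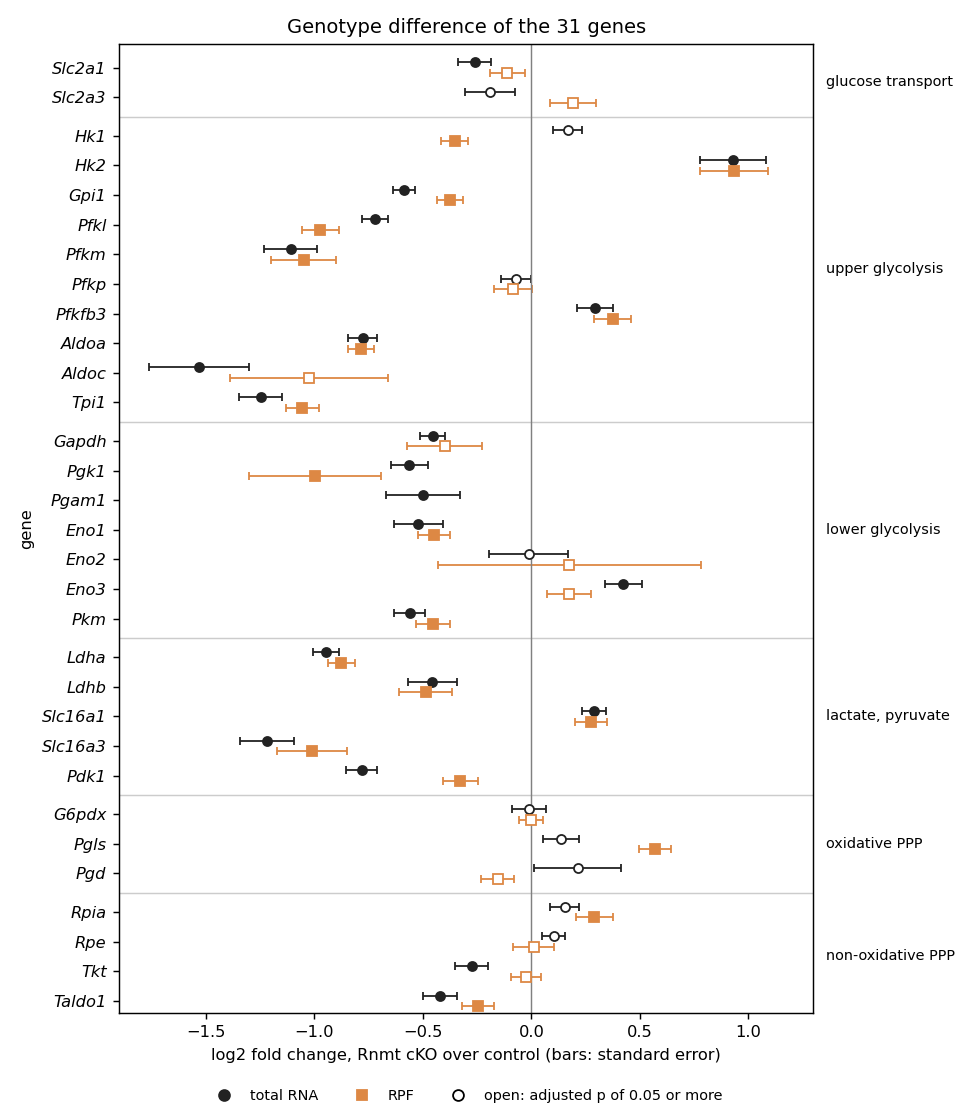
Log2 fold change of *Rnmt* cKO over control (horizontal axis, bars are SE) for each of the 31 genes, ordered by role, in total RNA (black circles) and RPF (orange squares), with open symbols where the adjusted p was 0.05 or more. Most symbols from upper glycolysis to lactate handling lie left of 0, with *Hk2*, *Pfkfb3*, *Eno3* and *Slc16a1* to the right as increased in total RNA and *Hk1* to the right but not called.

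Promoters of several of these genes hold the letters bound by the known regulators of the pathway, and a few of genes called in either direction are shown for this reason. Windows of 300 bases, from 250 before to 50 after each RefSeq start (GRCm38.p6), were found for 30 of the 31 genes (44 windows, since some genes have several starts). They were searched on both strands for ACGTG, the core of the hypoxia response element, and for CACGTG, the E-box bound by Myc, which holds ACGTG within it. ACGTG was in 18 of 44 windows (40.9%), beside 26.4% of the windows of genes tested in total RNA and 19.6% of all windows. Windows of a gene can overlap, and the same site of *Aldoa* was counted in 2 windows, so these are shares of windows and not of sites or genes. CACGTG was in 4 windows (9.09%), beside 10.5% and 7.15%. Below, the E-box or the ACGTG core, read as CACGT on the opposite strand, that each line is centred on is in capitals within its flanks, and a further core in the flanks of *Ldha* and of *Slc16a3* is left in lower case.
Ldha, chr7:46845739-46845778, plus strand: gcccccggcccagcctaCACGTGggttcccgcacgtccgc
Pfkm, chr15:98092436-98092475, plus strand: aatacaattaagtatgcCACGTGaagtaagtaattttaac
Slc16a1, chr3:104638447-104638486, plus strand: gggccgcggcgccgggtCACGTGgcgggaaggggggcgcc
Pfkfb3, chr2:11502121-11502160, minus strand: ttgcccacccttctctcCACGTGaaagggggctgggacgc
Pgk1, chrX:106186933-106186971, plus strand: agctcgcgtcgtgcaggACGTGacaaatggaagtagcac
Pkm, chr9:59657135-59657173, plus strand: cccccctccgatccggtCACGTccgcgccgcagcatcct
Slc16a3, chr11:120949023-120949061, plus strand: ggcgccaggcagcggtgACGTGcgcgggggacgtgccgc
Hk2, chr6:82774485-82774523, minus strand: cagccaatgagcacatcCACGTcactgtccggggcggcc

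Both kinds of motif occurred among genes that fell and genes that rose. ACGTG was present for 10 of the 18 decreased genes with a window, 3 of the 4 increased genes and 2 of the 8 not called. The E-box was present for 2 of the 18 (*Ldha* and *Pfkm*) and 2 of the 4 (*Slc16a1* and *Pfkfb3*). A start of the terminal oligopyrimidine kind, a C at the start followed by 4 pyrimidines, was found in 1 window (2.27%, of *Ldhb*), beside 2.40% of the windows of genes tested. These are matches of letters only.

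Per length, the most abundant total RNAs in controls were those of *Ldha* (212 ± 4.52 RPKM, CPM per kilobase of exon, SD, n = 3), *Aldoa* (209 ± 11.4), *Pkm* (163 ± 12) and *Tpi1* (143 ± 9.05), followed by *Tkt* at 80.5 ± 5.92 RPKM. *Ldha* and *Aldoa* lay within each other's spread, and *Pkm* and *Tpi1* came next. In RPF, per kilobase of coding sequence, *Aldoa* (870 ± 9.59 RPKM) and *Ldha* (843 ± 35.9) were again highest, followed by *Tkt* at 710 ± 24.5. In *Rnmt* cKO cells *Tkt* had the highest RPF level, 697 ± 41.4 RPKM, and *Aldoa* and *Ldha* stood at 504 ± 19.8 and 459 ± 14.1. At the other end, *Eno2* (0.482 RPKM), *Aldoc* (1.07) and *Pgam1* (1.92) were scarcely counted in control total RNA.

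Only reads aligned to a single place were counted, and several of these genes have near-identical copies elsewhere. Of the windows of 29 bases, about the length of a ribosome footprint, in their longest protein-coding transcript, 84.3% of those of *Gapdh*, 77.7% of *Eno1*, 68.3% of *Pgk1*, 53.2% of *Pkm*, 43.3% of *Ldhb*, 42.2% of *Pgam1*, 39% of *Gpi1*, 37% of *Aldoa* and 35.9% of *Ldha* were also found in transcripts of other genes, so their levels are too low by an unknown amount and their order is uncertain. Among the tested genes with many shared windows, *Pgk1* had the widest gap between the kinds of library, since it had 44.4 to 49.6 CPM in control total RNA but 3.06 to 3.16 CPM in control RPF. Reads that aligned in several places were 28.7 to 30.1% of all reads in control total RNA and 24.3 to 27.3% in *Rnmt* cKO. Reads that met no annotated exon on the counted strand, which can include reads within introns, were 5.34 to 6.0% and 7.24 to 8.21%. The part of both kinds of reads in the results for these genes was not tested. The 8 genes with no shared window were *Slc16a3*, *Pfkm*, *Aldoc* and *Tkt*, decreased in total RNA, *Slc16a1*, increased, and *Pgls*, *Pgd* and *Rpia*, not called.

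Glucose enters T cells mainly through GLUT1 (*Slc2a1*) and GLUT3 (*Slc2a3*). *Slc2a1* had 31.7, 29.6 and 31.3 CPM of total RNA in controls and 24.2, 26.9 and 26.0 CPM in *Rnmt* cKO, a log2 fold change of -0.26 (SE 0.08, adjusted p = 0.019). All 3 *Rnmt* cKO libraries lay below the controls, but the call was lost without control 1 (adjusted p = 0.069) or *Rnmt* cKO 1 (adjusted p = 0.080) and without TMM (-0.22, adjusted p = 0.057). Its RPF overlapped between the groups, at 89.0, 95.0 and 103 CPM from lowest to highest in controls and 85.2, 85.2 and 94.9 CPM in *Rnmt* cKO. *Slc2a3* was not called in either kind of library, with log2 fold changes of -0.19 (SE 0.12) and 0.19 (SE 0.11).

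In upper glycolysis, total RNA and RPF each had 6 of 10 genes decreased and 2 increased. Over all genes tested, 28.0% were decreased and 26.3% increased in total RNA, and 15.7% and 14.1% in RPF. The 2 of 10 increased were thus near the share over all genes. The hexokinases, which trap glucose as glucose-6-phosphate, moved unequally. *Hk2* (chr6:82725025-82774454) rose from 32.6, 30.6 and 36.6 CPM of total RNA in controls to 61.2, 78.4 and 50.7 CPM, and from 77.1, 53.7 and 70.2 CPM of RPF to 117, 154 and 113 CPM. The log2 fold changes were 0.93 (SE 0.15, adjusted p = 0.0015) and 0.94 (SE 0.16, adjusted p = 0.0033). No libraries of the groups overlapped, and *Rnmt* cKO 2 was highest in both kinds. *Rnmt* cKO 1 and 2, the libraries with high B cell sums, both lay above *Rnmt* cKO 3. The total RNA difference was 0.63 at its lowest among the alternatives. With *Rnmt* cKO 3 alone the RPF difference was 0.75 (adjusted p = 0.059). *Hk1* (chr10:62268855-62379908) was 0.17 higher in total RNA on the log2 scale (SE 0.07), which did not pass the test (adjusted p = 0.067), and fell in RPF by 0.35 (SE 0.06, adjusted p = 0.0045). The total RNA difference of *Hk1* passed without *Rnmt* cKO 3 (0.22, adjusted p = 0.030) and without TMM (0.20, adjusted p = 0.047), and with that library alone its RPF fall did not (-0.35, adjusted p = 0.085).

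*Gpi1*, which converts glucose-6-phosphate to fructose-6-phosphate, fell from 216, 220 and 210 CPM of total RNA to 143, 147 and 140 CPM. Phosphofructokinase, which commits fructose-6-phosphate to glycolysis, has 3 subunits here that moved unequally. The liver type *Pfkl* went from 150, 146 and 138 CPM to 86.5, 84.5 and 92.3 CPM of total RNA and from 281, 271 and 263 CPM to 121, 144 and 152 CPM of RPF, log2 fold changes of -0.72 (SE 0.06) and -0.97 (SE 0.09). The muscle type *Pfkm* fell from 15.6, 17 and 16.2 CPM to 7.93, 8.39 and 6.34 CPM of total RNA and from 33.1, 30.4 and 29.8 CPM to 14.2, 18.0 and 12 CPM of RPF, to 46.3% and 48.3% of control. Both of these subunits were lower in every *Rnmt* cKO library than in every control. The platelet type *Pfkp*, the most abundant of them in CPM, was not called in either kind. It had 188, 179 and 211 CPM of total RNA in controls and 182, 186 and 184 CPM in *Rnmt* cKO. Per length, *Pfkl* was higher than *Pfkp* in control total RNA (21.7 against 14.4 RPKM), and *Pfkp* was higher in control RPF (138.8 against 116.0 RPKM). *Pfkfb3*, whose product makes the activator of phosphofructokinase, fructose-2,6-bisphosphate, rose by 0.30 in total RNA (SE 0.08, adjusted p = 0.017) and 0.38 in RPF (SE 0.09, adjusted p = 0.012). Its total RNA call was lost without control 1 (adjusted p = 0.056) or control 2 (adjusted p = 0.059).

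Aldolase and triose phosphate isomerase complete the upper part. *Aldoa* (chr7:126795234-126800751) fell from 641, 613 and 575 CPM of total RNA to 357, 343 and 366 CPM, and from 1082, 1104 and 1086 CPM of RPF to 659, 630 and 609 CPM. The log2 fold changes were -0.78 (SE 0.07) and -0.79 (SE 0.06), and the groups lay far apart in both kinds. *Tpi1* (chr6:124810586-124814296) fell most among the abundant genes, from 414, 399 and 366 CPM to 159, 148 and 189 CPM of total RNA and from 606, 667 and 597 CPM to 281, 296 and 324 CPM of RPF. Its log2 fold changes were -1.25 (SE 0.10, adjusted p = 4.4e-05) and -1.06 (SE 0.08, adjusted p = 8.9e-05). *Aldoc*, a minor aldolase in these cells, had 2.75, 3.96 and 3.71 CPM in controls and 1.22, 0.927 and 1.42 CPM in *Rnmt* cKO, and its RPF difference of -1.02 (SE 0.36) did not pass the test (adjusted p = 0.065). It passed without a filter (adjusted p = 0.017), with at least 10 counts required (0.046) and without *Rnmt* cKO 3 (0.047).

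**Figure D3:**
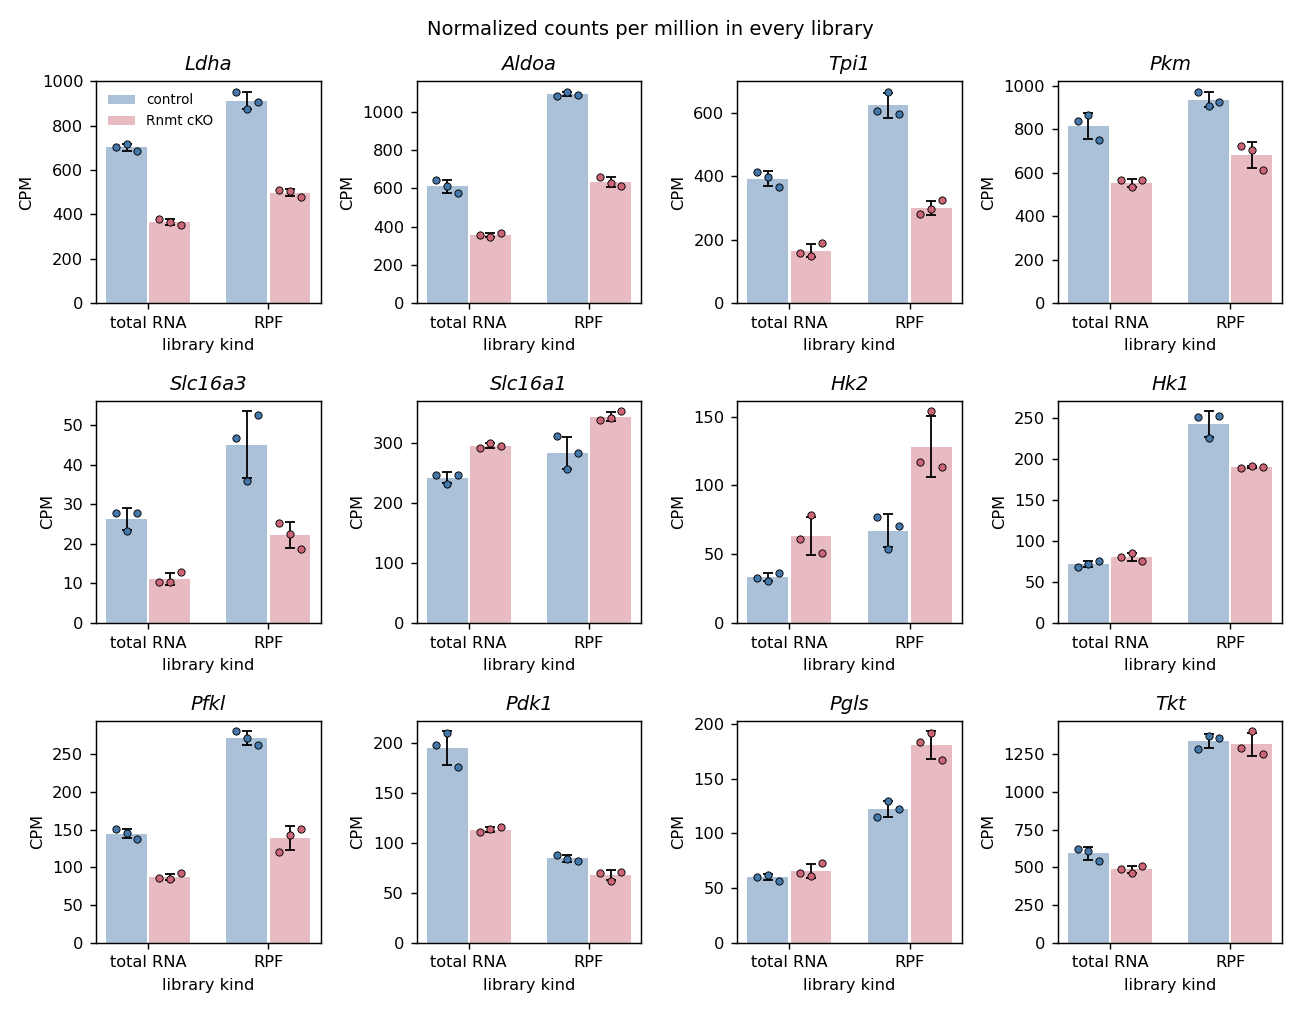
Normalized CPM (vertical axis) of 12 of the genes in total RNA and RPF, for control (blue) and *Rnmt* cKO (red), where points are libraries, bars are means of 3 libraries and error bars are SD. *Hk1* differs between the groups in RPF with little difference in total RNA, *Pdk1* differs most in total RNA, and *Pgls* differs in RPF.

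In lower glycolysis, 5 of 7 genes were decreased and 1 was increased in total RNA, and 3 of the 6 tested were decreased and none increased in RPF. The shares over all genes were 28.0% and 26.3% in total RNA and 15.7% and 14.1% in RPF. Increases were therefore no more frequent here than over all genes. *Pkm* (chr9:59656368-59679375), pyruvate kinase, went from 836, 864 and 749 CPM of total RNA to 564, 532 and 566 CPM and from 973, 906 and 924 CPM of RPF to 725, 706 and 614 CPM, so that every *Rnmt* cKO library was below every control. The log2 fold changes were -0.56 (SE 0.07) and -0.45 (SE 0.08). *Gapdh*, *Pgk1*, *Pgam1* and *Eno1*, which carry glyceraldehyde-3-phosphate to phosphoenolpyruvate, fell by 0.46, 0.56, 0.50 and 0.52 in total RNA on the log2 scale, with SE from 0.06 to 0.17. *Gapdh* had 91.0, 89.0 and 84.1 CPM in controls and 63.3, 63.3 and 66.0 CPM in *Rnmt* cKO, *Pgk1* had 45.8, 49.6 and 44.4 CPM against 29, 30.8 and 34.7 CPM, and *Eno1* had 63.7, 67.0 and 71.0 CPM against 53.9, 47.8 and 39.1 CPM. None of these 3 overlapped between the groups in total RNA. *Eno1* also fell in RPF by 0.45 (SE 0.08). The RPF difference of *Gapdh*, -0.40 (SE 0.17), was not called (adjusted p = 0.12). Its controls ranged widely, at 347, 209 and 274 CPM against 242, 201 and 187 CPM in *Rnmt* cKO, and the difference passed without control 2 (adjusted p = 0.023) and without a filter on low counts.

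Several calls of lower glycolysis rest on few reads. *Pgam1* had 3.60, 4.39 and 3.44 CPM of total RNA in controls and 2.98, 2.78 and 2.37 CPM in *Rnmt* cKO (adjusted p = 0.037), and the call was lost without control 1 or 2 or without any *Rnmt* cKO library, with adjusted p from 0.054 to 0.13, and also without TMM (0.052), with DESeq2 (0.12) and without a filter (0.072). The RPF call of *Pgk1* (adjusted p = 0.039) rested on 3.06 to 3.16 CPM in controls and 1.23 to 1.75 CPM in *Rnmt* cKO and was lost without any one of the 6 libraries, with adjusted p from 0.065 to 0.098, with DESeq2 (0.17) and without a filter (0.12). The muscle enolase *Eno3* was the gene of lower glycolysis that rose, from 20.7, 21.1 and 22.4 CPM of total RNA to 29.2, 26.2 and 30.6 CPM (0.42, SE 0.09, adjusted p = 0.0037). Its RPF difference was 0.17 (SE 0.10, adjusted p = 0.23). The neuronal enolase *Eno2* had about 2 CPM in every total RNA library and was not called.

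Genes of lactate and pyruvate handling were all called in both kinds of library, 4 of them as decreased. For comparison, total RNA had falls called for 28.0% and rises for 26.3% of everything tested. With RPF these shares were 15.7% and 14.1%. *Ldha* (chr7:46841475-46855627), the lactate dehydrogenase subunit that favours lactate formation, went from 702, 718 and 688 CPM of total RNA to 379, 364 and 351 CPM, and from 954, 876 and 909 CPM of RPF to 508, 504 and 480 CPM. The log2 fold changes were -0.95 (SE 0.06, adjusted p = 1.8e-05) and -0.88 (SE 0.06, adjusted p = 8.9e-05), and the highest *Rnmt* cKO library was well below the lowest control in both. *Ldhb*, the other subunit, was far scarcer in CPM and fell by 0.46 (SE 0.11) in total RNA and 0.49 (SE 0.12) in RPF. The RPF call of *Ldhb* was lost without control 1 or 2 or *Rnmt* cKO 1 or 2, with adjusted p from 0.051 to 0.072.

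The lactate transporters moved in opposite directions. *Slc16a3* (chr11:120948480-120960868) encodes MCT4, known as an exporter of lactate from glycolytic cells. It fell from 27.8, 23.1 and 27.9 CPM of total RNA to 10.3, 10.4 and 13.0 CPM and from 46.7, 35.9 and 52.6 CPM of RPF to 25.2, 22.6 and 18.7 CPM, log2 fold changes of -1.22 (SE 0.12, adjusted p = 0.00014) and -1.01 (SE 0.16, adjusted p = 0.0028). *Slc16a1* (chr3:104638668-104658462) encodes MCT1, the far more abundant transporter here. It rose from 247, 232 and 248 CPM to 292, 300 and 295 CPM of total RNA (0.29, SE 0.06, adjusted p = 0.0029) and from 311, 257 and 284 CPM to 338, 341 and 353 CPM of RPF (0.28, SE 0.08, adjusted p = 0.026). The groups did not overlap in any of these 4 comparisons. The RPF call of *Slc16a1* was lost without control 2 or 3 or any *Rnmt* cKO library, with adjusted p from 0.057 to 0.069.

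*Pdk1* (chr2:71873224-71903858) encodes a kinase that switches off pyruvate dehydrogenase. Its total RNA fell from 198, 210 and 176 CPM to 110, 113 and 116 CPM (-0.78, SE 0.07, adjusted p = 8.3e-05). Its RPF fell less, from 88.3, 83.6 and 81.6 CPM to 70.2, 61.8 and 70.7 CPM (-0.33, SE 0.08, adjusted p = 0.016). Both falls separated the groups completely, and the RPF call was lost without control 1 or *Rnmt* cKO 2, with an adjusted p of 0.051 in each case.

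None of the 3 oxidative PPP genes was called in total RNA. *G6pdx*, the glucose-6-phosphate dehydrogenase at the entry of the pathway, was level, with 51.5, 45.6 and 47.3 CPM in controls and 51.4, 47.0 and 45.2 CPM in *Rnmt* cKO. Its RPF values were 128, 126 and 128 CPM against 129, 127 and 125 CPM, a log2 difference of 0.00 (-0.002, SE 0.06). *Pgls* (chr8:71592176-71601092), the lactonase of the second step, overlapped in total RNA, with 60.3, 62.3 and 56.8 CPM against 63.4, 60.6 and 73.2 CPM, and rose in RPF from 115, 130 and 122 CPM to 184, 192 and 167 CPM (0.57, SE 0.08, adjusted p = 0.0012). *Pgd*, which makes the pathway's second NADPH, varied within *Rnmt* cKO. Its total RNA was 53.9 and 60.8 CPM in *Rnmt* cKO 1 and 2, the libraries with high B cell marker sums, above every control (39.6, 42.0 and 45.4 CPM), and 32.8 CPM in *Rnmt* cKO 3, below them. The difference was 0.45 without *Rnmt* cKO 3 (adjusted p = 0.0038) and -0.34 with that library alone (adjusted p = 0.043), so no direction can be given for *Pgd* in total RNA. Its RPF was not called (-0.15, SE 0.08), though it passed without *Rnmt* cKO 2 (-0.24, adjusted p = 0.033), and the part of B cells in these values was not tested.

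In the non-oxidative PPP, the sugar-shuffling enzymes *Tkt* (transketolase) and *Taldo1* (transaldolase) were decreased in total RNA and the ribose isomerase *Rpia* and the ribulose epimerase *Rpe* were not called. *Tkt* had 624, 610 and 543 CPM of total RNA in controls and 492, 464 and 511 CPM in *Rnmt* cKO (-0.28, SE 0.07, adjusted p = 0.014). Its RPF was level, with 1287, 1373 and 1360 CPM against 1291, 1403 and 1253 CPM (-0.03, SE 0.07). *Taldo1* fell by 0.42 (SE 0.08) in total RNA and 0.25 (SE 0.08) in RPF, and *Rpia* rose in RPF by 0.29 (SE 0.08, adjusted p = 0.032). The total RNA call of *Tkt* was lost without control 1 or 2 or *Rnmt* cKO 2 (adjusted p from 0.051 to 0.064), the RPF call of *Taldo1* without control 1 or 2 or any *Rnmt* cKO library (0.051 to 0.14), and that of *Rpia* without control 1 or 2 or *Rnmt* cKO 1 or 3 (0.070 to 0.11). The edgeR exact test also ended the RPF calls of *Taldo1* (adjusted p = 0.070) and *Rpia* (0.052), as did protein-coding library sizes for *Taldo1* (0.057) and the lack of a filter for *Rpia* (0.069).

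Translational efficiency (TE) was tested as the difference between the change in RPF and the change in total RNA, in a single fit over all 12 libraries. Of the 30 genes tested, 1 was decreased and 2 were increased, against 6.57% and 3.24% of the 10668 genes tested, so the members were called about as often as other genes. In 3 genes all *Rnmt* cKO ratios lay below the controls and in 6 above, against 14.9% and 16.6%. The median was 0.07, beside 0.04 for all genes (0.035). The most abundant glycolytic genes had falls of similar size in both kinds of library, and none of these differences in TE passed the test, with values of 0.07 (SE 0.09) for *Ldha*, -0.01 (SE 0.09) for *Aldoa*, 0.11 (SE 0.11) for *Pkm* and 0.19 (SE 0.13) for *Tpi1*.

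The 3 genes called in TE were *Hk1*, *Pdk1* and *Pgls*. The log2 ratio of RPF to total RNA of *Hk1* was 1.88, 1.64 and 1.74 in controls and 1.23, 1.17 and 1.32 in *Rnmt* cKO, a TE difference of -0.52 (SE 0.09, adjusted p = 0.0033). This call held without each library in turn, though with *Rnmt* cKO 3 alone the difference was -0.46 (adjusted p = 0.12). For *Pdk1* the ratios were -1.16, -1.32 and -1.11 against -0.65, -0.87 and -0.71 (0.45, SE 0.11, adjusted p = 0.017), and for *Pgls* 0.92, 1.05 and 1.10 against 1.53, 1.65 and 1.19 (0.43, SE 0.12, adjusted p = 0.031). The groups did not overlap for any of the 3 genes. The *Pdk1* call was lost without control 1 or 2 or *Rnmt* cKO 1 (adjusted p from 0.065 to 0.12), and with *Rnmt* cKO 3 alone (0.47, adjusted p = 0.17). The *Pgls* call was lost without any control or *Rnmt* cKO 1 or 2 (adjusted p from 0.064 to 0.17), without TMM (0.055) and without a filter (0.053), and with *Rnmt* cKO 3 alone the difference was 0.14 (adjusted p = 0.69). *Pgd* passed without *Rnmt* cKO 3 (-0.55, adjusted p = 0.015).

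Genes that do the same step can be compared within a library, where scaling has no effect. Counts were not divided by length here, so a ratio compares the groups and does not rank the genes of a pair. For 7 pairs, the log2 ratio of counts was compared in total RNA and in RPF, 14 comparisons in all, with exact two-sided permutation tests of 3 against 3 libraries, whose smallest possible p is 0.1. In 12 of them the groups were completely separated (exact permutation p = 0.1, adjusted p = 0.117), so none could pass 0.05. The largest shift was that of *Slc16a3* against *Slc16a1*. Their ratio was 0.108 in controls and 0.0378 in *Rnmt* cKO in total RNA, a log2 difference of -1.52, and 0.157 against 0.0642 in RPF, a difference of -1.29. The ratio of *Hk2* to *Hk1* rose from 0.464 to 0.777 in total RNA and from 0.274 to 0.668 in RPF, log2 differences of 0.74 and 1.29. That of *Pfkp* to *Pfkl* rose by 0.66 and 0.90, and those of *Eno1* to *Eno3* and of *Ldha* to *Ldhb* differed by -0.95 and -0.49 in total RNA and -0.63 and -0.40 in RPF. *Aldoa* against *Aldoc* was separated in total RNA (difference 0.75) and overlapped in RPF (0.27, exact permutation p = 0.8). *Slc2a1* against *Slc2a3* overlapped in total RNA (-0.07, exact permutation p = 0.6) and was separated in RPF (-0.31).

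**Figure D4:**
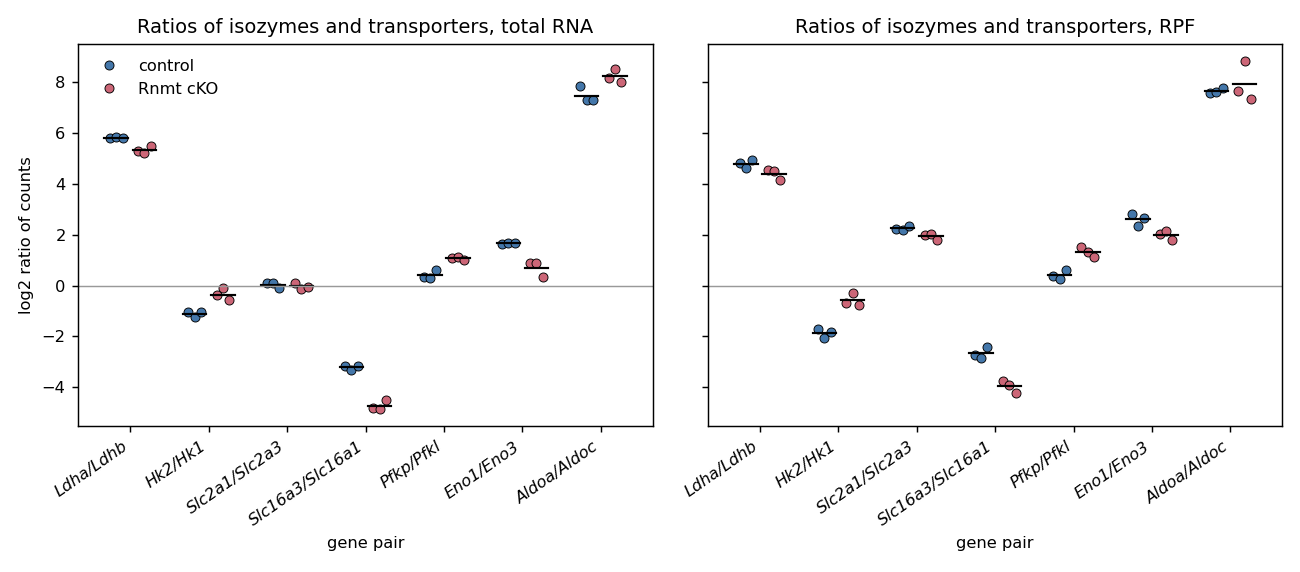
Log2 ratio of counts (vertical axis) for 7 pairs of genes that do the same step, in total RNA (left) and RPF (right), for control (blue) and *Rnmt* cKO (red), where points are libraries and black lines are means of 3 libraries. *Slc16a3*/*Slc16a1* lies lower and *Hk2*/*Hk1* and *Pfkp*/*Pfkl* lie higher in every *Rnmt* cKO library than in every control.

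Other genes of the pathways were taken from lists of further isozymes, gluconeogenic and opposing enzymes, pyruvate entry into mitochondria, glycerol phosphate enzymes and transporter partners, and further PPP and phosphoribosyl pyrophosphate (PRPP) enzymes. Of 52 listed, 34 were tested. In total RNA 14 were decreased and 4 increased, with a median of -0.25, and in RPF 11 and 6. These counts stand beside 28.0% and 26.3% of all genes in total RNA and 15.7% and 14.1% in RPF, so the increases in RPF were near the share over all genes. The largest fall was that of *Pck2* (mitochondrial phosphoenolpyruvate carboxykinase), from 10.9, 10.6 and 9.20 CPM to 5.01, 4.07 and 4.10 CPM of total RNA (-1.23, SE 0.13). *Pdha1*, the E1 subunit of pyruvate dehydrogenase that PDK1 phosphorylates, went from 196, 196 and 190 CPM to 96.1, 97.6 and 99.0 CPM (-0.99, SE 0.05), and its TE rose by 0.40 (SE 0.07, adjusted p = 0.0038). Thus the kinase and its substrate both fell in total RNA. Further falls of more than 0.5 were those of *H6pd* (-0.95, SE 0.13), *Pcx* (-0.69, SE 0.21), *Rbks* (-0.68, SE 0.16), *Nadk* (-0.57, SE 0.06) and *Emb* (-0.51, SE 0.08), which encode a microsomal hexose-6-phosphate dehydrogenase, pyruvate carboxylase, ribokinase, NAD kinase and a partner of monocarboxylate transporters. *Bpgm*, a bisphosphoglycerate mutase, and *Pdk2*, a further kinase of pyruvate dehydrogenase, fell by 0.56 (SE 0.14) and 0.53 (SE 0.14) in RPF. The *Pdk2* call was lost without any control or *Rnmt* cKO 1 or 2 and with DESeq2 (adjusted p from 0.050 to 0.088), the *Bpgm* call without *Rnmt* cKO 1 (adjusted p = 0.066), and both with *Rnmt* cKO 3 alone (adjusted p = 0.35 and 0.14). With *Rnmt* cKO 3 alone the total RNA call of *Rbks* (adjusted p = 0.087) and the TE call of *Pdha1* (0.33, adjusted p = 0.20) were also lost. The total RNA call of *Pcx* was lost without control 2 (-0.48, adjusted p = 0.075) or *Rnmt* cKO 1 (-0.57, adjusted p = 0.082), and with *Rnmt* cKO 3 alone (-0.55, adjusted p = 0.17).

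Rises among these genes included *Prps1*, which makes PRPP from ribose phosphate, from 51.9, 55.5 and 62.7 CPM of total RNA to 114, 170 and 86.5 CPM (1.12, SE 0.22, adjusted p = 0.0033). *Prps1* was highest in the 2 libraries with high B cell sums, and with *Rnmt* cKO 3 alone it was increased by 0.64 in total RNA (adjusted p = 0.0036) and not called in RPF (0.39, adjusted p = 0.069). Also increased was *Pdp2*, a phosphatase that reactivates pyruvate dehydrogenase (0.55, SE 0.11, adjusted p = 0.0038). The sugar transporter *Slc2a6* rose from 0.530, 0.740 and 1.24 CPM to 3.12, 9.83 and 2.93 CPM (2.66, SE 0.57, adjusted p = 0.0053). *Rnmt* cKO 2 was far above the others, and without it the difference was 1.86 (adjusted p = 0.0018). Its RPF in *Rnmt* cKO 3, 2.46 CPM, lay among the controls (1.5, 2.26 and 2.57 CPM), and the RPF difference was 1.53 without *Rnmt* cKO 2 (adjusted p = 0.084) and 0.23 with *Rnmt* cKO 3 alone (adjusted p = 0.82). The RPF call was also lost without control 1 (adjusted p = 0.077) or 2 (adjusted p = 0.059). *Slc2a9*, a urate and sugar transporter, was not called in total RNA (-0.15, SE 0.10) and rose in RPF (0.90, SE 0.21) and in TE (1.04, SE 0.19, adjusted p = 0.0042), calls that did not hold with *Rnmt* cKO 3 alone (1.05 and 1.03, adjusted p = 0.10 and 0.096).

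Of 10 regulators listed, 2 were decreased and 3 increased in total RNA, about the share over all genes (28.0% and 26.3%). *Myc* rose from 46.8, 48.2 and 67.6 CPM of total RNA to 170, 206 and 108 CPM (1.57, SE 0.24, adjusted p = 0.00095) and from 536, 510.3 and 619 CPM of RPF to 1178, 1295 and 1042 CPM (1.08, SE 0.10). It was highest in *Rnmt* cKO 1 and 2, the libraries with high B cell sums, and the total RNA difference with *Rnmt* cKO 3 alone was 1.02 (adjusted p = 0.0044). *Hif1a*, the regulated subunit of HIF-1, went the other way, from 499, 489 and 561 CPM to 416, 431 and 425 CPM of total RNA (-0.28, SE 0.07, adjusted p = 0.0094). *Vhl*, which targets HIF for destruction, rose in total RNA from 70.5, 64.0 and 65.5 CPM to 120, 105 and 146 CPM (0.90, SE 0.12) but not in RPF (0.05, SE 0.09), and its TE was decreased (-0.85, SE 0.15, adjusted p = 0.0037). *Egln2* fell by 0.35 (SE 0.08) and *Mtor* rose by 0.32 (SE 0.09) in total RNA. The *Mtor* call was lost without control 1 (0.28, adjusted p = 0.069) or 2 (0.30, adjusted p = 0.055). With *Rnmt* cKO 3 alone, *Hif1a*, *Egln2* and *Mtor* were not called in total RNA (adjusted p = 0.083, 0.084 and 0.067).

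Of 10 hypoxia-inducible genes of other pathways, 5 were decreased and 2 increased in total RNA, beside 28.0% and 26.3% of all genes, and 2 and 2 in RPF, which is near the 15.7% and 14.1% of all genes. *Bnip3*, a mitophagy receptor, fell from 9.69, 7.13 and 7.96 CPM to 1.49, 1.91 and 1.77 CPM (-2.25, SE 0.17, adjusted p = 4.1e-05), and *Ak4* (an adenylate kinase) and *P4ha1* (a collagen prolyl hydroxylase) fell by 1.31 (SE 0.17) and 1.2 (SE 0.10). *Mxi1* and *Ndrg1* fell by 0.50 (SE 0.08) and 0.47 (SE 0.12), and *Ndrg1* was not called with *Rnmt* cKO 3 alone (-0.22, adjusted p = 0.20). In contrast *Egln3*, a prolyl hydroxylase that acts on HIF, rose from 2.22, 2.64 and 2.53 CPM to 7.86, 11.7 and 7.76 CPM (1.89, SE 0.20) and *Ddit4*, an inhibitor of mTORC1, rose from 27.6, 31.6 and 35.7 CPM to 79.1, 76.0 and 70.4 CPM (1.25, SE 0.10). *Vegfa*, *Ankrd37* and *Kdm3a* were not called.

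**Figure D5:**
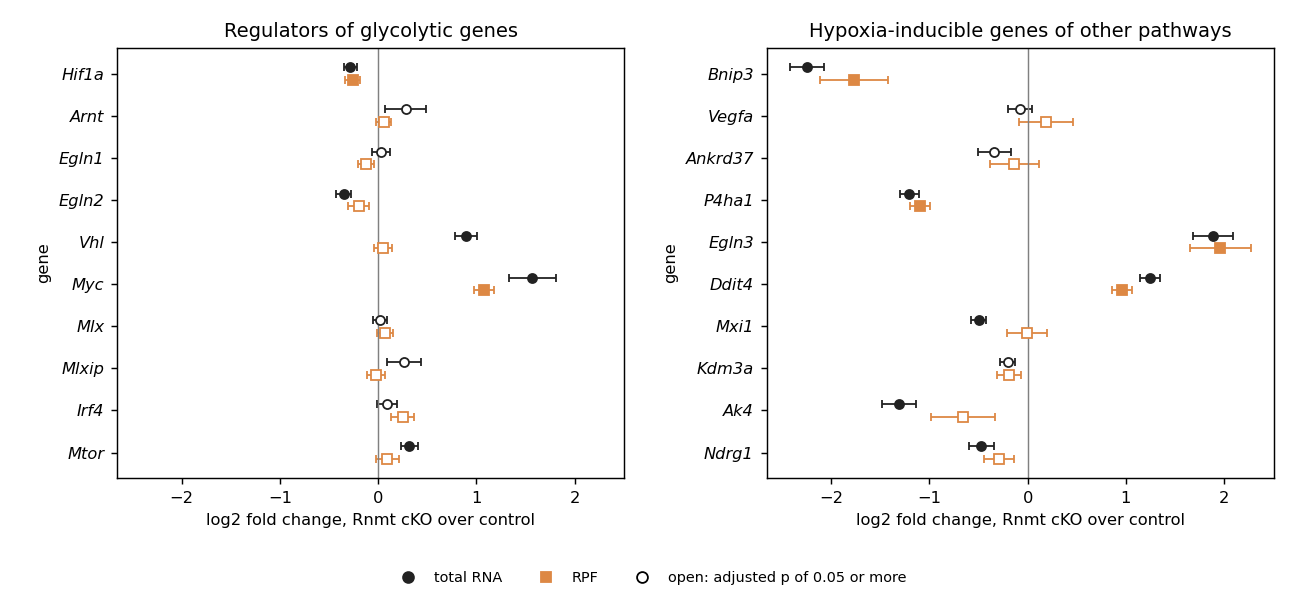
Log2 fold change of *Rnmt* cKO over control (horizontal axis, bars are SE) for 10 regulators of glycolytic genes (left) and 10 hypoxia-inducible genes of other pathways (right), in total RNA (black circles) and RPF (orange squares), with open symbols where the adjusted p was 0.05 or more. *Myc* lies right and *Hif1a* left of 0 in both kinds, and the hypoxia-inducible genes lie on both sides.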

How the data were processed

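Counts per gene of 12 libraries were used. Per the labels and the study's methods, the authors took read 2, removed adapters with cutadapt and ribosomal and transfer RNA reads with Bowtie, aligned the rest to mm10 with STAR 2.5.2b on GENCODE vM12 and deposited whole-number counts of uniquely aligned reads per gene, without normalization. They also deposited a table with a normalized signal per library (reverse-strand counts over a library-wide factor) and their own log2 fold changes and p-values, which were not used. The reverse-strand counts were taken here, since for 100.0% of the genes compared they matched the deposited signal to within 0.1% after a single factor per library, against at most 63.6% for the other count columns. Totals that name no gene were left out: reads aligned in several places were 22.9 to 31.0% of all reads. Symbols of 30 members came from the deposited table and that of *Pgam1* from GENCODE vM21 (GRCm38), which holds 49326 of the 49585 genes and gave positions and lengths. The members and lists were chosen with earlier results of these data known, and 1 listed marker gene is not reported here.

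Genes that exceeded 1 CPM in 3 or more of the 6 libraries of a kind were kept. After TMM scaling, edgeR 4.0.16 (R 4.3.3) was used for quasi-likelihood tests of genotype in total RNA and in RPF and, for TE, of the genotype-by-kind interaction over 12 libraries, with Benjamini-Hochberg adjustment over all genes tested. SE is the size of the log2 fold change divided by the square root of F. The median SE of these genes was 0.08 in total RNA and in RPF and 0.12 in TE, beside 0.10, 0.12 and 0.16 for all genes. These SE reflect counting error and variation among libraries. Duplicate reads were not separated. Per-library log2 ratios of RPF to total RNA used a pseudocount of 0.5 CPM and ratios of pairs of genes 0.5 counts. Total RNA and RPF libraries with the same genotype and number deviated together from their group means (correlation across genes 0.113 to 0.378), and a block for that pairing changed no call of these genes. All 31 genes are named by role. Of other pathway genes, those past the threshold with a log2 fold change of at least 0.5 are named, up to 5 a list, and others named were chosen after their values were seen. The fits were tested on simulated data. Alternatives were library size without TMM or over protein-coding genes, DESeq2 1.42.0, the exact test of edgeR, no filter or at least 10 counts, counts of both strands, a replicate block and each replicate left out. Figures were made with matplotlib 3.10.9.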

Additional observations from a re-analysis of the deposited data

Results flagged for a closer look

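In 3 of the 30 genes tested the change in RPF differed from the change in total RNA by a test of the difference itself, the interaction term of edgeR. Over all genes 6.57% were decreased and 3.24% increased in this test, so the members were called about as often as other genes. The interaction was -0.52 for *Hk1*, 0.45 for *Pdk1* and 0.43 for *Pgls*, with adjusted p of 0.0033, 0.017 and 0.031. All 3 *Rnmt* cKO pairs of libraries lay on the same side of the 3 control pairs for each of them. The *Pdk1* call was lost without control 1 or 2 or *Rnmt* cKO 1, and the *Pgls* call without any control or *Rnmt* cKO 1 or 2.

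Reads on the strand opposite to the gene were not part of the comparisons. For *Slc2a1* these were 3, 2 and 6 counts in control total RNA and 8, 13 and 15 counts in *Rnmt* cKO (mean 0.619 CPM in *Rnmt* cKO). For *Slc16a3* they were 10, 17 and 9 counts against 14, 32 and 22 counts (mean 1.18 CPM in *Rnmt* cKO as 0.95, 1.65 and 0.95 CPM, against 0.53, 0.90 and 0.48 CPM in controls). The limit that a count of 0 allows is 3 counts. In total RNA, 29.3% of the genes compared (1119 of 3814) had more than 3 such counts in each *Rnmt* cKO library and CPM above every control, so these genes are not set apart from others.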

How the results depend on the processing

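The direction of the member medians held in total RNA and RPF under every alternative tried. The total RNA median of -0.42 was -0.385 without TMM, -0.407 with DESeq2, -0.441 with protein-coding library sizes, -0.461 to -0.344 with each replicate left out and -0.338 with *Rnmt* cKO 3 alone against the controls, an alternative chosen after seeing the data. With each replicate left out, 15 to 18 members were decreased and 3 to 6 increased in total RNA. In RPF the numbers were 10 to 13 and 3 to 4, with a median from -0.34 to -0.248. Numbers over all genes also change between fits and are not given for these total RNA and RPF fits. The member counts therefore show only how far the calls held. With *Rnmt* cKO 3 alone RPF had 9 members decreased and 1 increased, and 520 and 477 of all genes. TE was least stable. The members decreased were 1 to 2 and those increased 0 to 2 with a replicate left out, 0 and 0 with *Rnmt* cKO 3 alone, and 1 increased without TMM or without a filter. The TE calls over all genes, 701 and 346, were 415 to 814 and 125 to 367 with a replicate left out, 294 and 81 with *Rnmt* cKO 3 alone, and 214 increased without a filter. The TE median was 0.122 with protein-coding library sizes, 0.031 to 0.105 with a replicate left out and 0.055 with *Rnmt* cKO 3 alone. Where a listed gene was called in the result or in the alternative, 2 differences changed sign, both with *Rnmt* cKO 3 alone, *Pgd* in total RNA (-0.338) and *Cd79b* in RPF (-0.399), and the cause was not tested. Others that were called in neither also changed sign, such as *Pax5* in total RNA (down to -0.232) and *Bnip3* in TE (down to -1.061). RPF depth was lowest in *Rnmt* cKO 3, which limits the precision of its values.

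Replicate numbers did not pair control with *Rnmt* cKO samples (correlation of deviations -0.476 to -0.171 in total RNA and -0.12 to 0.284 in RPF). With the replicate block, 16 members were decreased and 4 increased in total RNA, and 14 and 5 in RPF. The numbers over all genes in that fit are not given, so these counts show only how far the calls held. *Slc2a1* (adjusted p = 0.062) and *Pgam1* (0.067) in total RNA and *Pgk1* (0.081) in RPF lost their calls and *Gapdh* in RPF gained one (0.036).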
